A study of Mus musculus with 6 samples.

Results

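The proteasome genes were taken as the protein-coding genes whose mouse symbol begins with Psma to Psmg followed by a number, and 49 of the 23808 genes in the table met this rule. They encode the barrel-shaped 20S core of the proteasome, its 19S regulatory particle, its activators, its inhibitor and its assembly chaperones. One of them, Psmc3ip, encodes a partner protein that works in meiotic recombination and is no subunit, and is kept apart in the counts of classes. Messenger RNA was sequenced from tissue labelled heart, taken from wild-type (WT) female mice. The animals had eaten either a high-fat diet (HFD, 3 libraries) or normal chow (NC, 3 libraries) from week 4 to week 12 of life. Neither diet group carried another allele or agent in the labels. Strain and diet makeup are not in the labels, and neither is whether each library stands for its own animal. The p-values therefore refer to the spread among libraries, which may be of technical origin.

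The proteasome degrades proteins marked with ubiquitin. In the 20S core, rings of α subunits guard the entry and rings of β subunits cut the substrate. The 19S regulatory particle binds the ubiquitin chain, removes it, and unfolds and feeds in the protein with a ring of ATPases. Interferon replaces the 3 catalytic β subunits Psmb6, Psmb7 and Psmb5 by Psmb9, Psmb10 and Psmb8 in newly built cores, which are then called immunoproteasomes and favour peptides for MHC class I. In heart muscle the proteasome is a main route of turnover of contractile and other proteins.

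The promoters of the 5 catalytic subunit genes with a RefSeq entry are shown because the results below describe each of these genes. Psmb5 and Psmb6 are the constitutive catalytic subunits whose values as deposited did not overlap between the diets. HFD lay below NC in both, as in 4.88% of all tested genes. Psmb6 overlapped under each of the 3 other scalings, and Psmb5 stayed apart only after median centring. Psmb8, Psmb9 and Psmb10 are the inducible subunits, each with its highest value in HFD 2. The sequences are the 250 bases before the start site in RefSeq (build GRCm38.p6), 5′ to 3′. Capitals mark matches, on either strand, to the antioxidant response element core TGACNNNGC, which is the binding site of the NRF1 and NRF2 factors, to the gamma-activated site TTCNNNGAA of STAT factors, or to the CCAAT box.
Psmb5, chr14:54617996-54618245, minus strand: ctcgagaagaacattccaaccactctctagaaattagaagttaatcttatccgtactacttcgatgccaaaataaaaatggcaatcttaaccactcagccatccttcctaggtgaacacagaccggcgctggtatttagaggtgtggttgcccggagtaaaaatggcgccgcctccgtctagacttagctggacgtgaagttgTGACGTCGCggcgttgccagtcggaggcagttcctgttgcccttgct
Psmb6, chr11:70525107-70525356, plus strand: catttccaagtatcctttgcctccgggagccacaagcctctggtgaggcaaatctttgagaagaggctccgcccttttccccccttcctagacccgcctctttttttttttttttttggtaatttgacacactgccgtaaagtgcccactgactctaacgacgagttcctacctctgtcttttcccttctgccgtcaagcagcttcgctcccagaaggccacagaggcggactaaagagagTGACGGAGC
Psmb8, chr17:34197945-34198194, plus strand: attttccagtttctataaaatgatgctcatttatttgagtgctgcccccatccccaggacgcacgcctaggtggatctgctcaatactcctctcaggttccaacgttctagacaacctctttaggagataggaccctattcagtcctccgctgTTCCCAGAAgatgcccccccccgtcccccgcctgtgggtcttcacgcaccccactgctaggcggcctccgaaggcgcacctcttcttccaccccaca
Psmb9, chr17:34187331-34187580, minus strand: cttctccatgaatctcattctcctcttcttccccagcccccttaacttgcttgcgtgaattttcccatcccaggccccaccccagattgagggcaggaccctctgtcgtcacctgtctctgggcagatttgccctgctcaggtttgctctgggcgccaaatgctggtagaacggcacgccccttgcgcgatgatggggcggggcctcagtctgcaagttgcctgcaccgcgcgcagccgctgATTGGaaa
Psmb10, chr8:105938393-105938642, minus strand: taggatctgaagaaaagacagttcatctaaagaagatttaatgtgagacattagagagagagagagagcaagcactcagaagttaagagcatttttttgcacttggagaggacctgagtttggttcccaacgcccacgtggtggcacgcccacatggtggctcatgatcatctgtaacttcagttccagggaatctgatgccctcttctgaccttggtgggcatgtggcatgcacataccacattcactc
Psmb5 held its TGACNNNGC match at bases −47 to −39 and Psmb6 at bases −9 to −1, counted back from the start site. Psmb8 held a TTCNNNGAA match at bases −97 to −89, and Psmb9 a CCAAT match at bases −8 to −4, read on the opposite strand. Psmb10 held no match to any of the motifs searched. No marked matches overlapped. RefSeq gave a promoter for 41 of the 49 genes, the first listed start site being used. TGACNNNGC occurred in 5 of the 41 (12.2%, against 10.1% of all 27025 promoters), in Psmb5, Psmb6, Psmc6, Psmd9 and Psmd12. TTCNNNGAA occurred in 2 (4.88%, against 7.18% of all), Psmb8 and Psmg1. The core of the interferon-stimulated response element, GAAA repeated after any 2 bases, occurred in 3 (7.32%, against 3.04%). These were Psmb3, Psmd4 and Psmd9, and none is an inducible catalytic gene. CCAAT occurred in 14 (34.1%, against 34.5%). A match is a description of the letters and not a bound site. For Psmb5, Psmb8, Psmb9 and Psmb10 the RefSeq start lies inside the gene's outermost bounds in GENCODE, so these windows belong to 1 of several start sites. No entry was found for Psma8, Psmb1, Psmb2, Psmb7, Psmc3, Psmd3, Psmd7 and Psmg2.

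Several facts of the libraries touch the values below. The values are FPKM, a level per length of the gene and per size of the library. Genes of unlike length can thus be compared only roughly, given the GC content, overlapping exons and shared sequence described below. How deeply each library was read is unknown. The FPKM of nuclear genes summed to 480376 in HFD 1, the lowest of the 6 libraries, and to between 515644 and 583124 in the other 5. The libraries also differed with the GC content of transcripts. Over 11441 tested genes, the deviation of a library from the gene's mean over the 6 libraries had a Spearman rho with transcript GC of −0.474 in HFD 1, 0.310 in HFD 2 and −0.215 in HFD 3, and of −0.196 in NC 1, −0.0358 in NC 2 and 0.406 in NC 3. This is a description across genes, which are not independent replicates. Atrial markers, led by Nppa, summed to 428 to 7032 FPKM on HFD and 344 to 13769.5 FPKM on NC. Cardiomyocyte markers, led by Tnni3, were present in all libraries and summed to 11519 to 15013 FPKM on HFD and 14849 to 16924 FPKM on NC. The summed FPKM of fibroblast markers was 219 to 434 FPKM on HFD and 291 to 529.6 FPKM on NC, that of endothelial markers 201 to 225 FPKM on HFD and 146 to 225 FPKM on NC and that of adipocyte markers 0.410 to 11.7 FPKM on HFD and 1.14 to 16 FPKM on NC.

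Proteasome genes were broadly expressed, and none differed between the diets past the test. Of the 49 genes, 47 reached a mean of 1 FPKM and were tested, and Psma8 and Psme2b did not. Among the 47, 0 passed an adjusted p of 0.05 and 0 had an unadjusted p under 0.05 with limma (Benjamini-Hochberg adjustment over 11456 genes, smallest adjusted p among the 47 = 0.9998). Over all tested genes, 0% passed the adjusted and 3.62% the unadjusted threshold, 2.3% with HFD lower and 1.32% with HFD higher. The log2 fold change, HFD minus NC on the log2(FPKM + 1) scale, was below 0 in 33 of the 47 and above 0 in 14, with a median of −0.081, against a median of −0.019 and 53.1% below 0 over all tested genes. That split depended on the scaling between libraries. It was 25 below and 22 above after quantile normalization, and 23 below and 24 above when FPKM were rescaled over nuclear genes. Without NC 1 it was 24 below and 23 above, and without HFD 3 the median was −0.15, without NC 3 −0.17 and without NC 1 −0.0081. In bulk tissue, fewer cells of a type and less RNA per cell cannot be told apart.

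**Figure D1:**
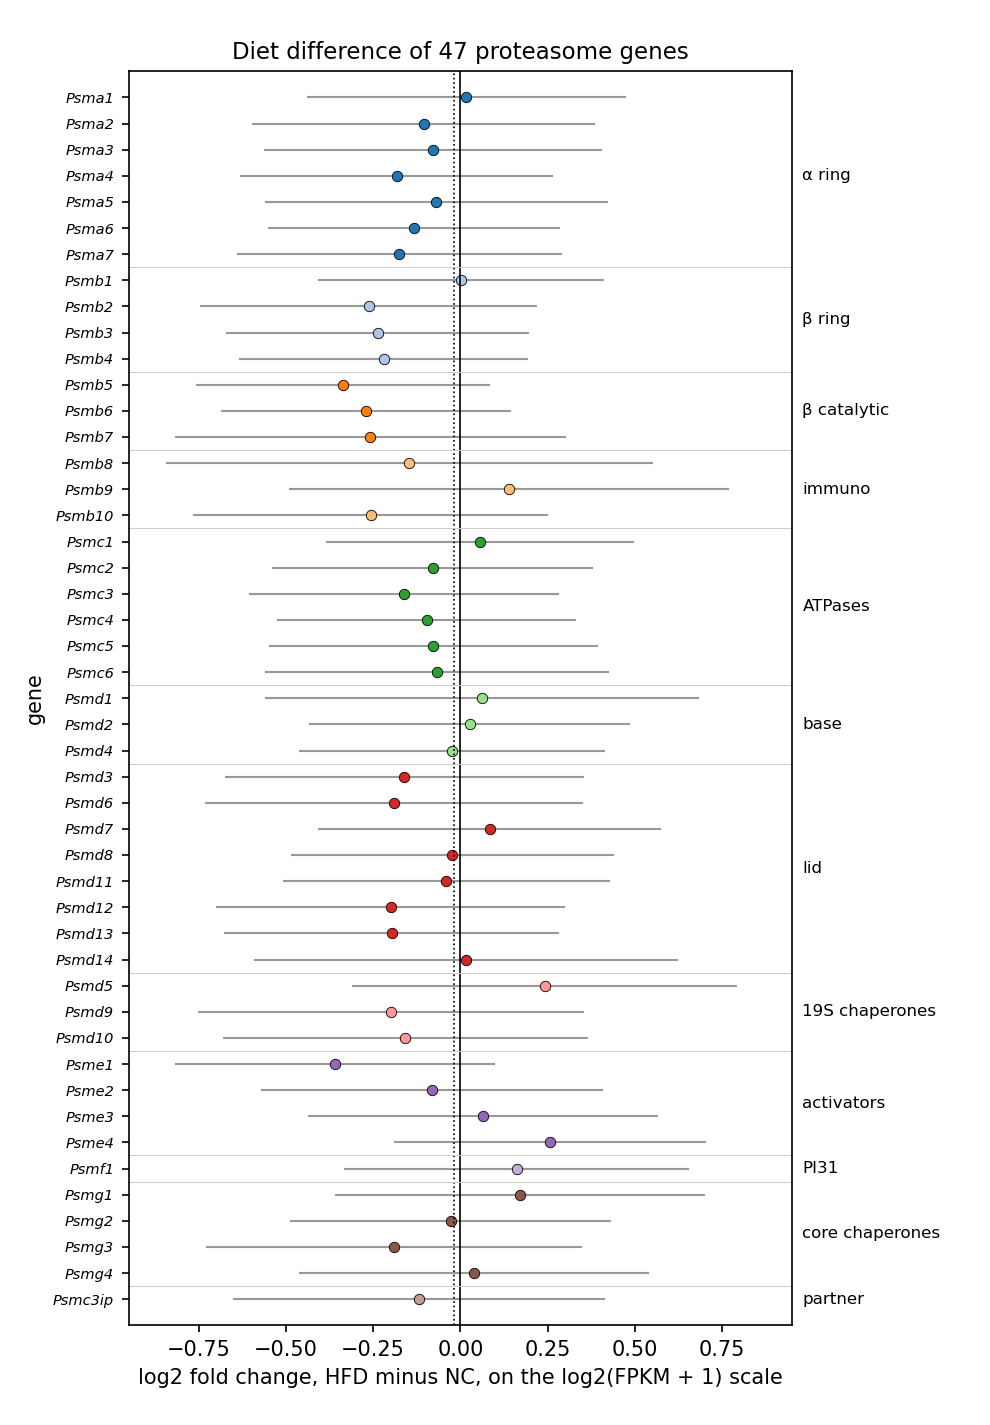
Log2 fold change (HFD minus NC, log2(FPKM + 1) scale) of the 47 tested proteasome genes, grouped by role from top to bottom, with bars for the 95% confidence interval of limma, a solid line at 0 and a dotted line at the median of all tested genes. The constitutive β subunits other than Psmb1 lie between −0.34 and −0.22, and the interval of every gene includes 0.

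The α ring forms the gate of the core and did not separate the diets. Its 7 genes stood at means between 36 FPKM for Psma5 and 81.3 FPKM for Psma6 over the 6 libraries. Psma6 had 82.8, 70.8 and 79 FPKM in HFD 1 to 3, against 90.1, 86.5 and 78.6 FPKM in NC 1 to 3, a log2 fold change of −0.13 with an SE of 0.19. Psma4 had 76.4, 61.6 and 77.3 FPKM in HFD 1 to 3, against 86.7, 88.6 and 69.5 FPKM in NC 1 to 3, a log2 fold change of −0.18 with an SE of 0.20. In both genes HFD 2 was the lowest library, and the diets overlapped. Psma7 had 75.6, 69 and 76.4 FPKM in HFD 1 to 3, against 99.7, 88 and 65.5 FPKM in NC 1 to 3, a log2 fold change of −0.17 with an SE of 0.21. There NC 3 was the lowest and NC 1 the highest library. The other 4 genes had log2 fold changes between −0.11 for Psma2 and 0.017 for Psma1. HFD 2 was the lowest library for 5 of the 7 genes and NC 3 for the other 2. The summed FPKM of the ring was 491, 388 and 489 in HFD 1 to 3, against 539.9, 524 and 416 in NC 1 to 3. Of the 7 log2 fold changes 6 were below 0 (median −0.11), which became 3 of 7 (median 0.019) without HFD 2 and 4 of 7 (median −0.020) after quantile normalization. Other medians of the ring were −0.016 after rescaling over nuclear genes, −0.023 without NC 2, −0.045 without NC 1, −0.18 without HFD 1 and −0.21 without NC 3. Psma8, which replaces an α subunit in the testis, stood at 0.354, 0.133 and 0.207 FPKM on HFD and 0.265, 0.206 and 0.128 FPKM on NC. These low values of Psma8 overlapped. Psmb11, the thymus-specific β subunit, was not analysed here.

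Within the constitutive core, the log2 fold changes furthest below 0 were those of the β ring, Psmb1 apart. Its structural subunits were led by Psmb4, which had 97.6, 114 and 114 FPKM in HFD 1 to 3, against 132, 128 and 119.9 FPKM in NC 1 to 3. Every HFD library of Psmb4 lay below every NC library, with means of 109 ± 9.5 FPKM on HFD and 126 ± 5.94 FPKM on NC (SD, n = 3 each) and a log2 fold change of −0.22 with an SE of 0.19. Psmb2 had 69.5, 53.9 and 77.6 FPKM in HFD 1 to 3, against 84.8, 91 and 65.5 FPKM in NC 1 to 3, a log2 fold change of −0.26 with an SE of 0.22. Psmb3 had 87.2, 103 and 91 FPKM in HFD 1 to 3, against 111, 126 and 96.2 FPKM in NC 1 to 3, a log2 fold change of −0.24 with an SE of 0.20. NC 1 and NC 2 were the highest libraries of both genes, while NC 3 lay among the HFD libraries. Psmb1 differed least, with 82.8, 84.7 and 83.4 FPKM in HFD 1 to 3, against 89.7, 83.6 and 77.7 FPKM in NC 1 to 3 and a log2 fold change of 0.0019 with an SE of 0.19. Psmb1 also varied least between libraries of all 49 genes, with a coefficient of variation of 4.61% over the 6 libraries.

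Psmb5 carries the chymotrypsin-like activity of the core and was the member with the smallest unadjusted p, though 57.1% of the 50-base windows of its transcript also occur in other genes. It had 76.7, 91.6 and 85.5 FPKM in HFD 1 to 3, against 111, 113 and 97.1 FPKM in NC 1 to 3. All HFD libraries lay below all NC libraries, with means of 84.6 ± 7.47 FPKM on HFD and 107 ± 8.72 FPKM on NC (SD, n = 3 each). Its log2 fold change was −0.34 with an SE of 0.19, with a 95% interval of −0.76 to 0.083 (limma, unadjusted p = 0.106), and it ranged over −0.40 to −0.27 when 1 library was left out. Psmb6, the caspase-like subunit, had the highest level of all proteasome genes. It had 117, 137 and 122 FPKM in HFD 1 to 3, against 161, 154 and 139 FPKM in NC 1 to 3. Here too the diets did not overlap, with means of 125 ± 10.5 FPKM on HFD and 151 ± 11 FPKM on NC (SD, n = 3 each) and a log2 fold change of −0.27 with an SE of 0.19 (95% interval −0.68 to 0.14). Psmb7, the trypsin-like subunit, had 73, 56.1 and 87.5 FPKM in HFD 1 to 3, against 99.5, 103 and 60.1 FPKM in NC 1 to 3. HFD 2 and NC 3 were the lowest libraries of Psmb7, so the diets overlapped, and its log2 fold change of −0.26 with an SE of 0.26 ranged over −0.51 to −0.091 when 1 library was left out. It was −0.091 without HFD 2, −0.12 without NC 2 and −0.51 without NC 3.

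The 7 constitutive β genes had a median log2 fold change of −0.26, with 6 of 7 below 0, and 6 or 7 of 7 were below 0 under every scaling, filter, pseudocount and left-out library tried. Psmb4, Psmb5 and Psmb6 were the only 3 of the 47 genes with every HFD library below every NC library, against 4.88% of all tested genes, and 0 of the 47 had every HFD library above every NC library, against 3.25%, or 8.13% of all tested genes in either direction. The separation depended on the scaling between libraries, HFD 1 being the lowest library of all 3 genes. Rescaled over nuclear genes or after quantile normalization, 0 of the 47 had HFD below NC, and after median centring Psmb5 and Psmd13 had. The median of the 7 genes was −0.17 after rescaling over nuclear genes, −0.14 after quantile normalization and −0.17 without NC 2. Summed over the 7 genes, FPKM were 604, 639.7 and 661 in HFD 1 to 3, against 788, 798 and 655 in NC 1 to 3. The 3 HFD sums lay close together, the NC 1 and NC 2 sums were the highest, and NC 3 lay within the HFD range. Cardiomyocyte markers also had log2 fold changes below 0 in 5 of 6 genes (median −0.21), HFD lying below NC for Tnni3 and Tnnt2. That median was 0.074 with 2 of 6 below 0 after quantile normalization, −0.12 with 4 of 6 after rescaling over nuclear genes, −0.10 without HFD 2 and −0.36 without HFD 3. Fibroblast markers had log2 fold changes below 0 in 5 of 5 genes (median −0.80, or −0.51 without NC 3), 3 of them with an unadjusted p under 0.05 and 0 past the adjusted threshold (limma). The collagen gene Col3a1 had 29.4, 18.7 and 38.4 FPKM in HFD 1 to 3, against 80.5, 54.1 and 92 FPKM in NC 1 to 3, and a log2 fold change of −1.38 with an SE of 0.28. The part of either marker list in the result was not tested.

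**Figure D2:**
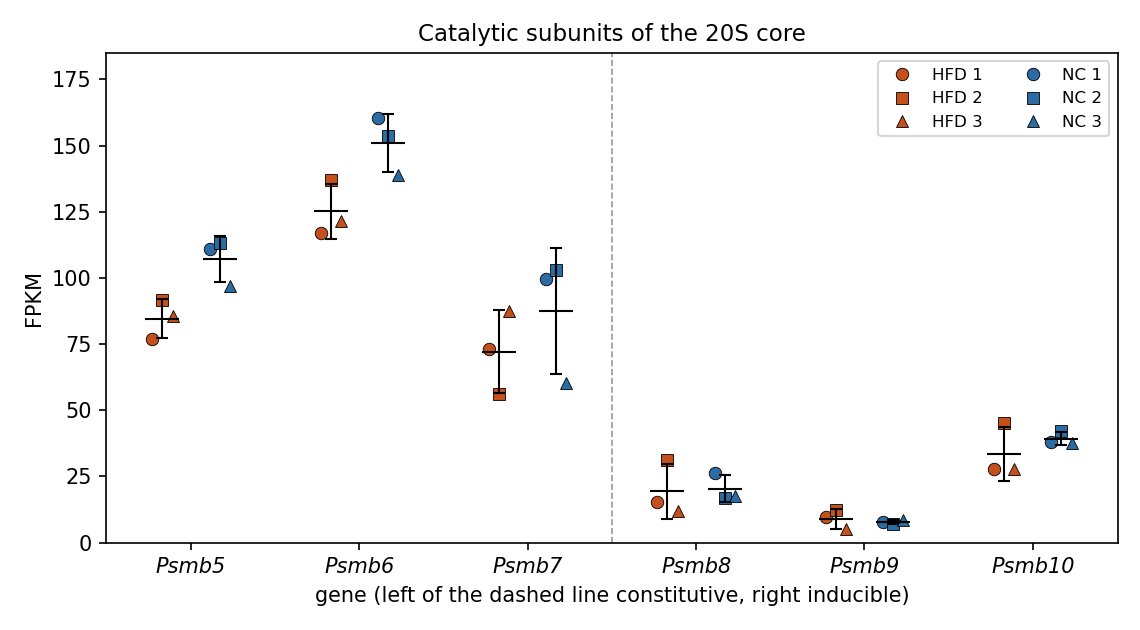
FPKM of the 3 constitutive (Psmb5, Psmb6, Psmb7) and 3 inducible (Psmb8, Psmb9, Psmb10) catalytic subunit genes, HFD libraries left of NC libraries for each gene, with a marker shape per replicate number, and the mean and SD of 3 libraries in black. For Psmb5 and Psmb6 the HFD points lie below all NC points, as in 4.88% of all tested genes. For Psmb8, Psmb9 and Psmb10 the highest point is HFD 2.

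The inducible catalytic genes were highest in a single HFD library and did not differ between the diets past the test. Psmb8 had 15.2, 31.3 and 11.9 FPKM in HFD 1 to 3, against 26.2, 17 and 17.7 FPKM in NC 1 to 3. HFD 2 was the highest and HFD 3 the lowest library, with means of 19.5 ± 10.4 FPKM on HFD and 20.3 ± 5.1 FPKM on NC (SD, n = 3 each) and a log2 fold change of −0.15 with an SE of 0.32. Psmb9 had 9.85, 12.4 and 4.95 FPKM in HFD 1 to 3, against 7.6, 6.95 and 8.5 FPKM in NC 1 to 3. Its HFD values spanned the whole NC range, with means of 9.07 ± 3.79 FPKM on HFD and 7.68 ± 0.776 FPKM on NC (SD, n = 3 each) and a log2 fold change of 0.14 with an SE of 0.29. Psmb10 had 27.7, 45.4 and 27.8 FPKM in HFD 1 to 3, against 37.9, 42.2 and 37.8 FPKM in NC 1 to 3. HFD 1 and HFD 3 lay below all NC libraries and HFD 2 above them, with means of 33.6 ± 10.2 FPKM on HFD and 39.3 ± 2.53 FPKM on NC (SD, n = 3 each) and a log2 fold change of −0.26 with an SE of 0.23. The coefficient of variation over the 6 libraries was 36.9% for Psmb8, 30.6% for Psmb9 and 20.1% for Psmb10, against a median of 14.4% for the 14 constitutive core genes and 23.5% for all tested genes. The direction of Psmb8 and Psmb9 changed with single libraries, and that of Psmb10 did not. The log2 fold change of Psmb8 was −0.53 without HFD 2, 0.13 without HFD 3 and 0.042 without NC 1. That of Psmb9 was −0.11 without HFD 2 and 0.48 without HFD 3, and that of Psmb10 ranged over −0.49 to −0.14, the low end being without HFD 2.

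The RNA levels of inducible and constitutive subunits were compared as a ratio within each library, in which a factor common to the whole library cancels. RNA levels do not show which subunits are built into cores. Differences between libraries that follow transcript GC do not cancel where the 2 genes differ in GC. The share of Psmb8 in the FPKM of Psmb8 and Psmb5 together was 16.5, 25.5 and 12.2% in HFD 1 to 3, against 19.1, 13.1 and 15.4% in NC 1 to 3. HFD 2 had the highest and HFD 3 the lowest share, on either side of all NC libraries. The share of Psmb9 in the FPKM of Psmb9 and Psmb6 together was 7.77, 8.31 and 3.91% in HFD 1 to 3, against 4.52, 4.33 and 5.76% in NC 1 to 3. HFD 1 and HFD 2 lay above the NC libraries and HFD 3 below them. The share of Psmb10 in the FPKM of Psmb10 and Psmb7 together was 27.5, 44.7 and 24.1% in HFD 1 to 3, against 27.6, 29.1 and 38.6% in NC 1 to 3. The highest share was again in HFD 2, and the lowest in HFD 3. Transcript GC is 56.5% for Psmb10 and 40.8% for Psmb7. It is 52.5% for Psmb8 and 56.6% for Psmb5, and 54.1% for Psmb9 and 51.6% for Psmb6, pairs whose share was also highest in HFD 2. HFD 2 and NC 3, with the highest shares of Psmb10, are the libraries with a positive rho with GC. The part of GC in the shares was not tested. The difference in the mean log2 ratio, HFD minus NC, was 0.18 for Psmb8 to Psmb5 (exact two-sided permutation p = 0.7), 0.42 for Psmb9 to Psmb6 (exact p = 0.4) and −0.0035 for Psmb10 to Psmb7 (exact p = 0.9), with an adjusted p of 0.9 over the 3 ratios for each. With 3 against 3 libraries the smallest p this test can give is 0.1. The within-diet SD of the log2 ratio was 0.66 on HFD and 0.33 on NC for Psmb8 to Psmb5, 0.64 on HFD and 0.23 on NC for Psmb9 to Psmb6, and 0.72 on HFD and 0.39 on NC for Psmb10 to Psmb7. Each difference was smaller than the SD on HFD, and that of Psmb9 to Psmb6 was larger than the SD on NC.

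**Figure D3:**
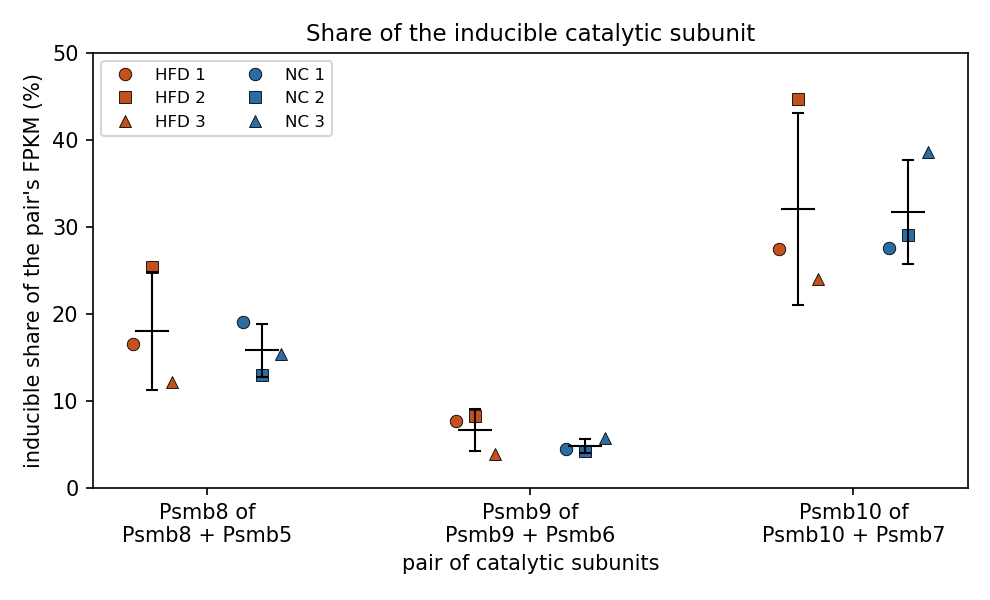
Share (%) of the inducible subunit in the summed FPKM of each inducible and constitutive pair, HFD libraries left of NC libraries, with the mean and SD of 3 libraries in black. HFD 2 has the highest and HFD 3 the lowest share in all 3 pairs. The HFD means of 18.1, 6.67 and 32.1% lie within 1 SD of the NC means of 15.9, 4.87 and 31.7%, by the SD of HFD. By the SD of NC, which is 0.777 for the Psmb9 pair, the means of that pair lie further apart than 1 SD.

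Genes of the interferon axis and of class I peptide loading had the same highest library. HFD 2 was highest for 9 of the 10 genes of this list, the exception being Erap1, which trims peptides. Irf1, a factor that switches on Psmb9 and Tap1, had 20.3, 30.9 and 16 FPKM in HFD 1 to 3, against 17, 17.1 and 18.2 FPKM in NC 1 to 3, a log2 fold change of 0.30 with an SE of 0.25. The class I heavy chain gene H2-K1 had 146, 261 and 135 FPKM in HFD 1 to 3, against 155, 122 and 147 FPKM in NC 1 to 3, a log2 fold change of 0.29 with an SE of 0.26. B2m, the class I light chain, had 592, 722 and 409.7 FPKM in HFD 1 to 3, against 519, 479.9 and 408 FPKM in NC 1 to 3, a log2 fold change of 0.26 with an SE of 0.23. The peptide-loading chaperone gene Tapbp had a log2 fold change of 0.25 with an SE of 0.22. The peptide transporter gene Tap1, which lies head to head with Psmb9, had 4.17, 14.4 and 5.02 FPKM in HFD 1 to 3, against 4.34, 3.94 and 8.84 FPKM in NC 1 to 3. Tap1 was highest in HFD 2 and next highest in NC 3, the libraries with a positive rho with GC, and the part of GC was not tested. The log2 fold change was above 0 in 10 of 10 genes (median 0.23) and 0 passed the test, and without HFD 2 it was above 0 in 5 of 10 (median 0.0098). Without NC 2 it was above 0 in 9 of 10 (median 0.11). The count of 10 thus depended on HFD 2. Leukocytes carry immunoproteasomes constitutively. The 10 leukocyte markers, led by Lyz2, summed to 89.9 to 127 FPKM on HFD and 114 to 195 FPKM on NC. HFD 2 was the highest of the 6 libraries for 0 of the 10. Among the HFD libraries alone, HFD 2 was the highest for Cd68, Coro1a, Ptprc and Cd79a, and HFD 1 or HFD 3 for the others. The part of leukocytes in the HFD 2 values was not tested. The lymphocyte markers Cd3e and Cd79a stayed under 1 FPKM in all 6 libraries, and all 7 tested markers had a log2 fold change below 0 (median −0.37). It was below 0 in 6 of 7 (median −0.16) without NC 1 and in 6 of 7 (median −0.21) without HFD 1. The macrophage marker Cd68 had 4.2, 5.36 and 4.71 FPKM in HFD 1 to 3, against 9, 8.87 and 5.52 FPKM in NC 1 to 3.

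The ATPase ring of the 19S base did not separate the diets. Its 6 genes stood between 32.6 FPKM for Psmc2 and 94.7 FPKM for Psmc3. Psmc3, whose tail docks into the α ring, had 88, 82.1 and 97 FPKM in HFD 1 to 3, against 113, 105 and 83.1 FPKM in NC 1 to 3, a log2 fold change of −0.16 with an SE of 0.20. Psmc4 had 30.6, 35.1 and 34.3 FPKM on HFD and 38.9, 33.7 and 34.5 FPKM on NC, a log2 fold change of −0.096 with an SE of 0.20. NC 1 was the highest library of both. Psmc2 had a log2 fold change of −0.079 with an SE of 0.21, and that of Psmc1 was 0.056 with an SE of 0.20. Of the 6 genes 5 had a log2 fold change below 0 (median −0.079), which became 2 of 6 (median 0.0090) after rescaling over nuclear genes and 3 of 6 (median −0.0028) after quantile normalization. Without HFD 3 it was 6 of 6 (median −0.17), without NC 3 6 of 6 (−0.14), without HFD 2 3 of 6 (−0.034) and without NC 1 4 of 6 (−0.036).

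Among the other base subunits, the ubiquitin receptor gene Psmd4 had 51.9, 65.3 and 57.8 FPKM in HFD 1 to 3, against 64.1, 61.7 and 52.3 FPKM in NC 1 to 3, a log2 fold change of −0.025 with an SE of 0.20. The scaffold genes Psmd1 and Psmd2 had log2 fold changes of 0.062 with an SE of 0.28 and 0.027 with an SE of 0.21. Psmd1 had 12.7, 7.43 and 14.6 FPKM on HFD and 14, 11.2 and 7.69 FPKM on NC, and HFD 2 and NC 3 were its lowest libraries. In the lid, which houses the deubiquitinating enzyme Psmd14, 6 of 8 genes had a log2 fold change below 0 (median −0.10), or 4 of 8 (median 0.011) without HFD 2 and 8 of 8 (median −0.24) without HFD 3. Other medians of the lid were −0.052 after quantile normalization, −0.015 with 4 of 8 after rescaling over nuclear genes, −0.049 without HFD 1 and −0.040 without NC 2. Psmd13 had 19.2, 19.9 and 27.7 FPKM in HFD 1 to 3, against 27, 22.2 and 26.9 FPKM in NC 1 to 3, a log2 fold change of −0.20 with an SE of 0.22. Psmd12 and Psmd6 had log2 fold changes of −0.20 with an SE of 0.23 and −0.19 with an SE of 0.25. Psmd7, the partner of Psmd14 and the lid gene with the highest level, had 39.7, 31.2 and 48.8 FPKM on HFD and 43.2, 34.2 and 34.2 FPKM on NC, a log2 fold change of 0.084 with an SE of 0.22. Psmd14 itself had 24.7, 11.2 and 19.7 FPKM in HFD 1 to 3, against 19.8, 18.9 and 14.3 FPKM in NC 1 to 3. It was highest in HFD 1 and lowest in HFD 2, so that the HFD values enclosed all NC values.

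Over the 17 genes of the regulatory particle, 12 had a log2 fold change below 0 (median −0.067), against 12 of 14 (median −0.18) for the constitutive core and 2 of 3 (median −0.15) for the immunoproteasome. These medians moved with single libraries and with the scaling, and so did the median of all tested genes. The all-gene median was −0.019 in the main fit, −0.11 without HFD 3, 0.053 without HFD 1 and −0.0079 without HFD 2. It was 0.023 without NC 1 and 0.00072 without NC 3. After quantile normalization it was 0.0095, and after rescaling over nuclear genes 0.059. For the regulatory particle, the median was −0.18 with 17 of 17 below 0 without HFD 3, −0.12 without NC 3, 0.034 with 8 of 17 without HFD 2, −0.024 without HFD 1, −0.025 without NC 1, 0.0018 with 8 of 17 after quantile normalization and 0.020 with 6 of 17 after rescaling over nuclear genes. For the core it was −0.084 without HFD 2, −0.11 without NC 1, −0.29 without NC 3, −0.074 after quantile normalization and −0.090 after rescaling over nuclear genes. For the immunoproteasome it was −0.49 without HFD 2, 0.13 without HFD 3, 0.042 without NC 1, −0.036 without HFD 1, −0.23 without NC 3 and −0.064 after rescaling over nuclear genes. The difference between the classes was not tested. In level, the constitutive core genes had a median of 79.5 FPKM, the regulatory particle 32.9 FPKM and the immunoproteasome 19.9 FPKM.

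**Figure D4:**
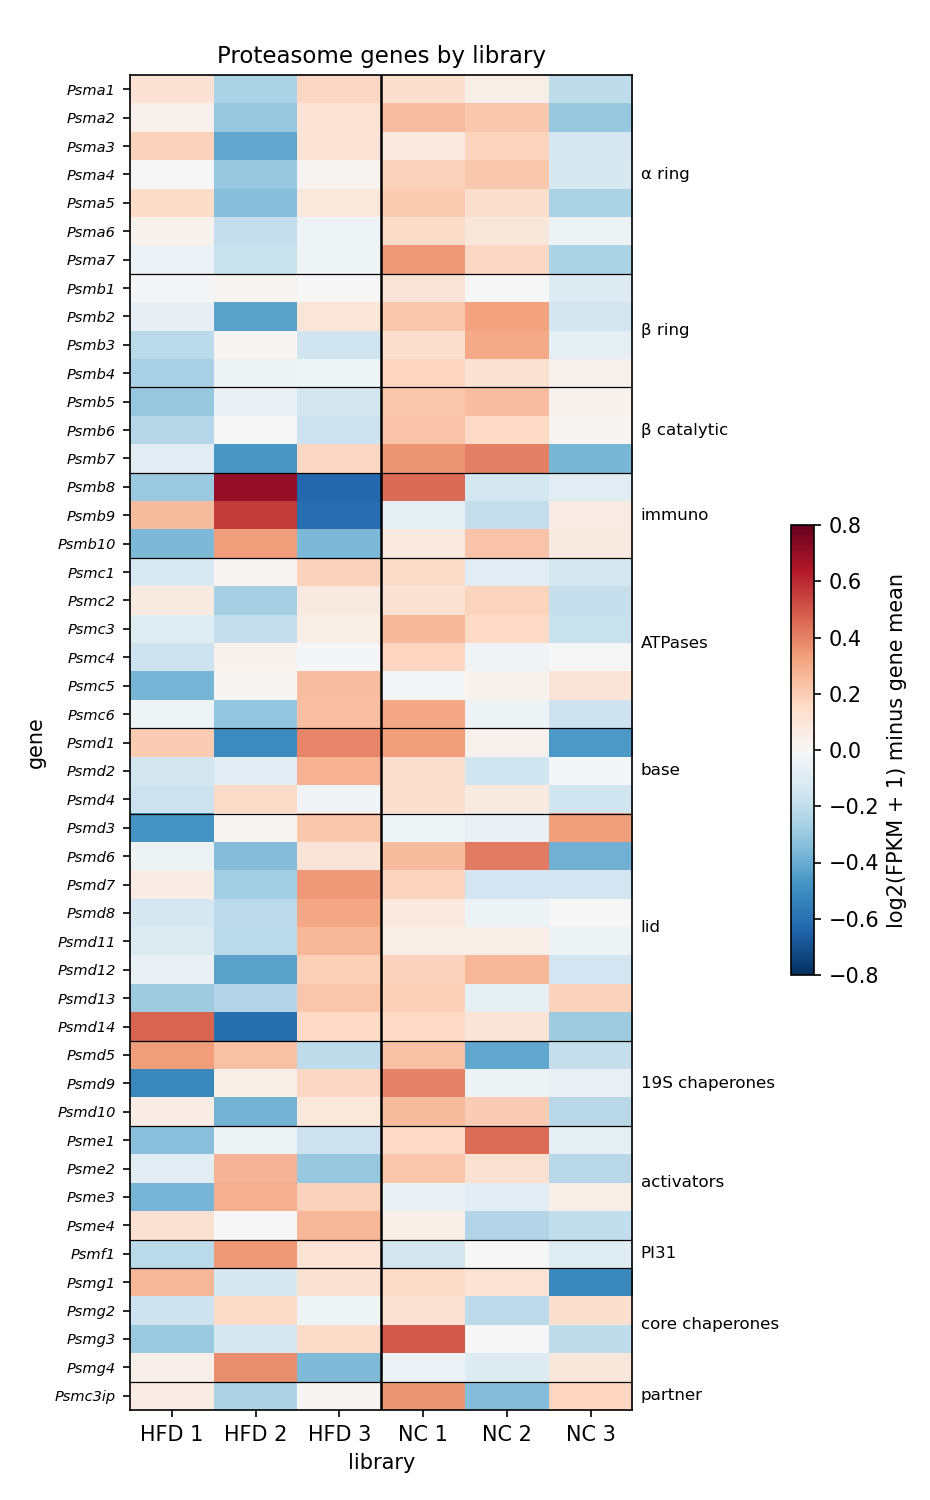
Log2(FPKM + 1) minus the gene's mean over the 6 libraries (colour, red above and blue below the mean, scale ending at ±0.8) for 47 proteasome genes, ordered by role from top to bottom, with the HFD libraries left of the line and the NC libraries right of it. The α ring is blue in HFD 2 and NC 3, Psmb4, Psmb5 and Psmb6 are blue or white on HFD and red or white on NC, and Psmb8 and Psmb9 are red in HFD 2 and blue in HFD 3.

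In HFD 1 to 3 and NC 3, the values of proteasome genes moved with their GC content, and in NC 1 and NC 2 hardly so. Over the 47 genes, the Spearman rho between the deviation from the gene's mean and transcript GC was −0.521, 0.532 and −0.386 in HFD 1 to 3, and −0.0698, −0.0664 and 0.468 in NC 1 to 3, the points sharing their library. The 11 members with a transcript GC under 45%, such as Psma2, Psmb7 and Psmc6, had a median log2 deviation of −0.30 in HFD 2 and −0.20 in NC 3. The 7 members with at least 55%, such as Psmb5, Psmb10 and Psme1, had −0.040 in HFD 2, 0.031 in NC 3 and −0.30 in HFD 1. The members with low GC were thus lowest in the same libraries of both diets. With a correction for GC within libraries, chosen after seeing the data, 0 of the 47 passed (limma, smallest adjusted p = 0.873), and Psmb5 had a log2 fold change of −0.26, Psmb6 of −0.23, Psmb7 of −0.28 and Psmb8 of −0.10.

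**Figure D5:**
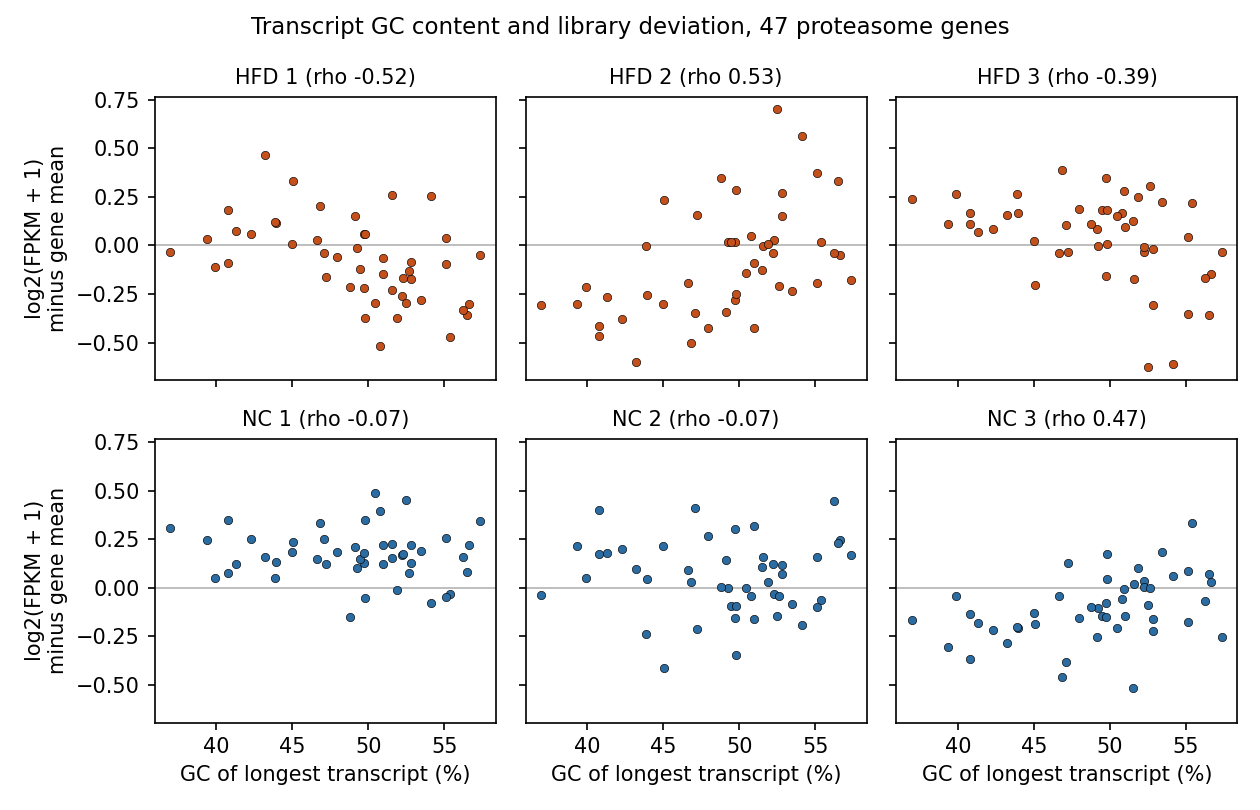
Deviation of log2(FPKM + 1) from the gene's mean over the 6 libraries (vertical axis) against the GC content of the gene's longest transcript (horizontal axis, %) for 47 proteasome genes, 1 panel per library, HFD above NC. The points slope upward in HFD 2 and NC 3 and downward in HFD 1 and HFD 3, and the Spearman rho stands above each panel.

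The activators bind the open ends of the core in place of the 19S particle, and their log2 fold changes lay on both sides of 0. Psme1 and Psme2 form the interferon-inducible activator PA28. Psme1 had 67.5, 82.9 and 75.8 FPKM in HFD 1 to 3, against 95.2, 117 and 81.1 FPKM in NC 1 to 3. Only NC 3 lay below an HFD library, and the log2 fold change of −0.36 with an SE of 0.21 had the largest size among the 47 (95% interval −0.81 to 0.096, range −0.48 to −0.22 when 1 library was left out, the end nearest 0 being without NC 2). Psme2 had 44.8, 57.6 and 38.4 FPKM in HFD 1 to 3, against 55.8, 51.9 and 40.7 FPKM in NC 1 to 3, a log2 fold change of −0.081 with an SE of 0.22. Unlike Psme1, Psme2 was highest in HFD 2, as were the inducible catalytic genes. HFD 2 was the highest library for 9 of the 49 members, among them also Psmd4, Psme3, Psmf1, Psmg2 and Psmg4. Psme3, the nuclear form, had a log2 fold change of 0.064 with an SE of 0.23. Psme4, which encodes the large activator PA200, had 23.1, 21.1 and 25.7 FPKM in HFD 1 to 3, against 21.9, 17.8 and 18.3 FPKM in NC 1 to 3. It was the member with the largest log2 fold change above 0, at 0.26 with an SE of 0.20, a 95% interval of −0.19 to 0.70 and a range of 0.19 to 0.35 when 1 library was left out. As deposited, NC 1 lay among the HFD libraries of Psme4, while every HFD library lay above every NC library after rescaling over nuclear genes, median centring or quantile normalization (7.45, 4.5 and 5.31% of tested genes). Rescaled over nuclear genes, Psmc1 did too. Psme2b, which shares most of its sequence with Psme2, had 1.11, 0.315 and 0.629 FPKM on HFD and 1.31, 0.287 and 0.839 FPKM on NC and was not tested.

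The inhibitor and the chaperones had low to middle levels. Psmf1, the core inhibitor PI31, had 5.32, 8.35 and 6.91 FPKM in HFD 1 to 3, against 5.62, 6.35 and 5.86 FPKM in NC 1 to 3, a log2 fold change of 0.16 with an SE of 0.23. Of the core assembly chaperones, Psmg1 had 15, 11.2 and 13.5 FPKM in HFD 1 to 3, against 13.8, 13.4 and 8.32 FPKM in NC 1 to 3, a log2 fold change of 0.17 with an SE of 0.24. Its partner Psmg2 had a log2 fold change of −0.028 with an SE of 0.21, Psmg3 of −0.19 with an SE of 0.25 and Psmg4 of 0.038 with an SE of 0.23. The 19S chaperone gene Psmd5 had 4.31, 3.96 and 2.66 FPKM in HFD 1 to 3, against 3.97, 2.17 and 2.7 FPKM in NC 1 to 3, a log2 fold change of 0.24 with an SE of 0.25. The chaperone genes Psmd9 and Psmd10, of which Psmd10 encodes gankyrin, had log2 fold changes of −0.20 with an SE of 0.25 and −0.16 with an SE of 0.24. In all of these the diets overlapped. Psmc3ip had 2.14, 1.54 and 2.04 FPKM on HFD and 2.84, 1.37 and 2.4 FPKM on NC, a log2 fold change of −0.12 with an SE of 0.24.

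Other genes of the ubiquitin and proteasome system did not pass the test either. Of the 3 subunit and maturation genes with other symbols, the core maturation factor Pomp had 48.7, 62.2 and 57.9 FPKM in HFD 1 to 3, against 67.4, 66 and 52.1 FPKM in NC 1 to 3, a log2 fold change of −0.13 with an SE of 0.21. The ubiquitin receptor gene Adrm1 and the lid subunit gene Sem1 had log2 fold changes of −0.11 with an SE of 0.25 and −0.088 with an SE of 0.22. Nfe2l1 encodes NRF1, the factor that raises the transcription of subunit genes when proteasome activity is short. It had 50.4, 49.2 and 78.6 FPKM in HFD 1 to 3, against 48.1, 41.5 and 36.3 FPKM in NC 1 to 3. Every HFD library of Nfe2l1 lay above every NC library, as in 3.25% of tested genes, with means of 59.4 ± 16.6 FPKM on HFD and 42 ± 5.94 FPKM on NC (SD, n = 3 each) and a log2 fold change of 0.47 with an SE of 0.23 (limma, adjusted p = 0.9998, unadjusted p = 0.0688, range 0.25 to 0.58 when 1 library was left out, the low end being without HFD 3). Its relative Nfe2l2 had 17.5, 22.6 and 26.4 FPKM in HFD 1 to 3, against 18.4, 13.6 and 14.7 FPKM in NC 1 to 3, a log2 fold change of 0.48 with an SE of 0.23, with HFD 1 lying below NC 1. The protease Ddi2 and the ligase Syvn1, which act on NRF1 at the endoplasmic reticulum, had log2 fold changes of −0.14 with an SE of 0.23 and 0.15 with an SE of 0.25. Of the 6 regulator genes, 4 were above 0 (median 0.12) and 4 were highest in HFD 3. Over all tested genes, HFD 3 also had the highest median deviation from the gene's mean, at 0.17 (log2). Without HFD 3, 3 of the 6 regulator genes were above 0 (median 0.025, against −0.11 over all tested genes). The median of the regulator genes was 0.068 without NC 2 and 0.21 without HFD 1. It was 0.21 with 5 of 6 above 0 after rescaling over nuclear genes, and 0.12 with 4 of 6 after quantile normalization. The smallest unadjusted p of the list (limma) was 0.0572 in the main fit, 0.0198 after median centring, 0.0113 after quantile normalization and 0.0118 after rescaling over nuclear genes. In each of these fits 0 passed the adjusted threshold.

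Among 12 tested factors that bind the proteasome or carry substrates to it, 8 had a log2 fold change above 0 (median 0.058). HFD 3 was the highest library for 10 of the 12. Over all tested genes, HFD 3 also had the highest median deviation from the gene's mean, at 0.17 (log2). Without HFD 3, 3 of the 12 were above 0 (median −0.084, against −0.11 over all tested genes). Ecpas, an adaptor and quality-control factor of the proteasome, had 16.1, 12.6 and 18.5 FPKM in HFD 1 to 3, against 13.6, 13.7 and 8.5 FPKM in NC 1 to 3, a log2 fold change of 0.39 with an SE of 0.25 (range 0.18 to 0.53 when 1 library was left out). The ligase Ube3c and the nuclear import factor Akirin2 had log2 fold changes of 0.21 with an SE of 0.25 and −0.16 with an SE of 0.20. Of 8 tested ubiquitin, E1 and p97 genes 5 were below 0 (median −0.081). The direction changed with the scaling, to 4 of 8 after quantile normalization (median 0.014) and after rescaling over nuclear genes (median 0.0086), and the median was −0.18 without HFD 2, −0.12 without NC 2 and −0.050 without HFD 1. Uba1, the main ubiquitin-activating enzyme, had 31.7, 33 and 35.2 FPKM in HFD 1 to 3, against 38.5, 49.99 and 38.9 FPKM in NC 1 to 3. All HFD libraries of Uba1 lay below all NC libraries, as in 4.88% of tested genes, with a log2 fold change of −0.33 with an SE of 0.20. Ufd1, a p97 cofactor, and the polyubiquitin gene Ubb had log2 fold changes of −0.29 with an SE of 0.23 and −0.14 with an SE of 0.19.

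By GENCODE annotation of the mm10 genome, Psmb8 lies on chromosome 17 from 34197721 to 34201454, and Psmb9 on the same chromosome from 34181987 to 34187764, within the MHC. Psmb10 lies on chromosome 8 from 105935735 to 105938444. Psmb5 lies on chromosome 14 from 54614119 to 54618022, Psmb6 on chromosome 11 from 70525367 to 70527858 and Psmb7 on chromosome 2 from 38588036 to 38644087. Psme1 and Psme2 neighbour each other on chromosome 14 from 55578123 to 55581529 and from 55587441 to 55591113. Exons of 15 of the 49 genes overlap those of another gene, 12 of them with a gene on the opposite strand, among them Psmb9 with Tap1, Psmb7 with Nek6 and Psmb8 with Gm20496. The sources used here do not say whether strand was used, and without it reads from the members of such a pair cannot be told apart. Of the 50-base windows of the longest transcript, 69.3% of Psme2b, 59.3% of Psme2, 57.1% of Psmb5 and 54.5% of Psma5 also occur in transcripts of other genes, so the values of these 4 genes are uncertain. Another 5 of the 49 genes share between 10 and 50% of their windows in this way.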

How the data were processed

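The samples were prepared with Trizol and a VAHTS kit for mRNA libraries, per the labels. The authors deposited FPKM, 1 value per gene and library; which program produced them is not stated in what was used here. Per the submitters' processing notes, the tools were DESeq2 1.18.1, FastQC 0.11.9, HISAT2 2.2.1, Trimmomatic 0.38, HTSeq 0.13.5 and R 3.4.1 with mm10, roles not given. Whole-read steps were sought in values under 0.3 FPKM: of the ratios to NC 1, 2.40 to 4.95% lay within 0.02 (log2) of the commonest. Reads and depth were therefore not recovered, no count test was run and no counting interval is given. Symbols matched 23718 of 23808 identifiers.

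The test was limma 3.58.1 (R 4.3.3, eBayes with trend, two-sided, Benjamini-Hochberg over 11456 genes with a mean of 1 FPKM or more, threshold 0.05) on log2(FPKM + 1), a scale that understates changes of low genes, with no covariate. It was tried on simulated data first. Ratios of catalytic subunits were compared with exact permutation tests. GC and windows came from the longest GENCODE M21 transcript. Members and lists were chosen with earlier results of these data known. Named by rule were the 6 catalytic genes, the 3 members of each other class with the smallest p, its highest member, those not tested, and up to 4 genes of each other list besides Nfe2l1, Pomp, Adrm1 and Sem1, except for some that are not reported here. Psma1, Psma2, Psma5, Psmb1, Psmc1, Psmd14, Psme3, Psmg2, Tap1, Cd68, Col3a1, Tnni3, Tnnt2 and Erap1 were named after their values were seen. Alternatives were pseudocounts of 0.1 and 0.5, a filter at 5 FPKM or none, 3 scalings, 2 eBayes settings, a replicate block and each library left out. Figures were drawn with matplotlib 3.10.9.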

Additional observations from a re-analysis of the deposited data

How the results depend on the processing

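No proteasome gene passed an adjusted p of 0.05 in any of the 18 alternatives to the main limma fit, and the number with an unadjusted p under 0.05 was 0 or 1. Over all tested genes the count of 0 became 73 with the replicate number as a block, 1 with the block and a GC correction together, and 0 to 1 when 1 library was left out. The deviations of same-numbered HFD and NC libraries correlated at 0.193, 0.0864 and 0.275 across genes, and the labels do not say that a number marks a pair, so the block is given only here, and it changed no call of a proteasome gene. Of 56 named genes with a fit, 32 kept their direction in every alternative. After rescaling over nuclear genes, Psmc2 turned to 0.0082, Psmd4 to 0.064, Psme2 to 0.0077, Psmg2 to 0.060 and Sem1 to 0.000126; after quantile normalization Psmd4 turned to 0.071, Psme2 to 0.0043 and Psmg2 to 0.017; and Psma1 was −0.0059 and Psmd4 0.025 with a GC correction, with or without the block. Leaving out 1 library gave ranges that included 0 for Psma1 (−0.081 to 0.15), Psma2 (−0.28 to 0.019), Psmb1 (−0.050 to 0.053), Psmb8 (−0.53 to 0.13), Psmb9 (−0.11 to 0.48), Psmc1 (−0.022 to 0.15), Psmc2 (−0.19 to 0.034), Psmd1 (−0.15 to 0.33), Psmd2 (−0.11 to 0.11), Psmd4 (−0.11 to 0.055), Psmd7 (−0.069 to 0.25), Psmd9 (−0.33 to 0.0098), Psme2 (−0.24 to 0.051), Psme3 (−0.062 to 0.27), Psmg1 (−0.044 to 0.29), Psmg2 (−0.14 to 0.047), Psmg3 (−0.34 to 0.0071), Psmg4 (−0.14 to 0.22), Psmc3ip (−0.32 to 0.027), H2-K1 (−0.0054 to 0.47), Ddi2 (−0.26 to 0.0099), Syvn1 (−0.027 to 0.39), Adrm1 (−0.25 to 0.095) and Sem1 (−0.22 to 0.033). The difference in the log2 ratio of Psmb10 to Psmb7 was 0.0016 with a pseudocount of 1 and 0.11 with a GC correction, and ranged over −0.41 to 0.26 when 1 library was left out, and that of Psmb8 to Psmb5 over −0.17 (without HFD 2) to 0.48. For Psmb9 to Psmb6 the difference ranged over 0.21 to 0.78 when 1 library was left out. Proteasome genes with every HFD library below every NC library numbered 3 as deposited, 0 after rescaling over nuclear genes, 0 after quantile normalization and 2 after median centring, and those with HFD above numbered 0, 2, 1 and 1 in the same order. The cause of these changes was not tested. The overlap counts under other scalings and the GC corrections were chosen after seeing the data. The number of libraries and the unknown depth limit what can be detected.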
